A study of Mus musculus with 6 samples.

Results

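The promoters of the cytosolic ribosomal protein genes were examined in an ATAC-seq experiment on murine leukemia stem cells. The set held the protein-coding genes of the GENCODE M21 annotation whose name is Rpl or Rps followed by a number, together with Rpsa, Rplp0, Rplp1 and Rplp2, leaving out the Rps6k kinases and names with -ps. This gave 86 of the 21938 protein-coding genes on chromosomes 1 to 19, X and Y. Of the 86, 46 encode proteins of the large subunit and 31 proteins of the small subunit, and 9 are paralogs or genes that share only the name.

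ATAC-seq maps open chromatin by the sites where the Tn5 transposase can insert. The cells were leukemic granulocyte-macrophage progenitors (L-GMPs, called LSCs) sorted from mice with acute myeloid leukemia driven by the MLL-AF9 fusion, labelled as wild type in genotype and as blood in origin, and cultured with serum and mouse IL3. There were 3 control samples and 3 samples treated with mycophenolate mofetil (MMF), a prodrug of mycophenolic acid that blocks IMPDH and with it the synthesis of guanine nucleotides. The labels give 24 h of treatment and no dose, and the study's methods and figure legends differ in dose and time. Both groups carried MLL-AF9. The study describes its data in general as coming from at least 3 biologically independent samples or experiments. Nothing states for these ATAC-seq samples in particular that those of a group were separate cultures or animals. The tests therefore cover the spread between these samples, which may be technical.

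Each cytosolic ribosome holds ribosomal RNA together with these proteins in near equal numbers, and the genes are expressed together and at high levels in growing cells. Their promoters are compact, usually lie in CpG islands, and often start transcription inside a run of pyrimidines, the terminal oligopyrimidine (TOP) tract, through which mTOR signaling controls translation of the mRNA. Ribosomal RNA synthesis uses large amounts of GTP, and ribosomal proteins that are not built into ribosomes can bind Mdm2 and activate p53.

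The promoter sequences below, from RefSeq on GRCm38.p6, belong to members of the set with the largest and the smallest differences described later. Each runs from 60 bases before the RefSeq start to 20 bases from it. Capitals mark an ETS, SP or TATA motif on either strand, spelled out with the motif counts, or the run of pyrimidines that covers the first base of the RefSeq transcript. A run that begins a base later, as in Rpl18, is left in lower case. Rpl11 (chr4:136053374-136053453, minus strand), Rps10 (chr17:27635225-27635304, minus strand) and Rpl12 (chr2:32961652-32961731, plus strand) had large negative differences with MMF, and Rpl22l1 (chr3:28805448-28805527, plus strand) had one of the largest positive ones. Rps27 (chr3:90213629-90213708, minus strand), Rpl26 (chr11:68901506-68901585, plus strand) and Rpl18 (chr7:45718011-45718090, plus strand) had the smallest. In Rpl12 and Rpl18 the summit of the highest peak differed by 1194 and 2660 bp between the lists. It therefore did not lie in the printed stretch in every list. Rpl36 and Rpl23a had no entry in the sequence table.
Rpl11: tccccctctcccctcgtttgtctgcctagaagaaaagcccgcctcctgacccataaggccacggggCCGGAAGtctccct
Rps10: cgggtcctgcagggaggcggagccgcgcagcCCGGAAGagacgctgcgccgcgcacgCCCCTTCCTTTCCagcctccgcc
Rpl12: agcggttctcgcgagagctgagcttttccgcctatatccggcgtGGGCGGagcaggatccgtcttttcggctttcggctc
Rpl22l1: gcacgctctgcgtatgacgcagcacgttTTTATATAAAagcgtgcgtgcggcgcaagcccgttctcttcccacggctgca
Rps27: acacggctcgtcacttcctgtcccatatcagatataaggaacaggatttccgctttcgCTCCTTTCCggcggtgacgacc
Rpl26: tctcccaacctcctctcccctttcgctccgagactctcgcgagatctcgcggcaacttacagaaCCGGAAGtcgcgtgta
Rpl18: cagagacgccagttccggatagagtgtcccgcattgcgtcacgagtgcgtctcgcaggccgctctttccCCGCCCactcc
Rps10 and Rps27 showed the pyrimidine run over the RefSeq start, and Rpl11 showed the ETS letters a few bases inside the transcript. Rpl26 also held the ETS letters just downstream of the RefSeq start, and Rpl22l1, the paralog that can replace Rpl22, carried the TATA letters upstream of it. The RefSeq start and the nearest start of the GENCODE annotation were the same base in Rpl11, Rps27 and Rpl18. They lay at 32961712 against 32961559 in Rpl12, at 27635244 against 27635240 in Rps10, at 68901566 against 68901583 in Rpl26 and at 28805508 against 28805469 in Rpl22l1. Counted from the GENCODE start, the ETS letters of Rpl26 were upstream and the TATA letters of Rpl22l1 downstream.

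The peak lists, called on each sample alone, held 58496 to 63911 peaks in the control samples and 80893 to 86556 peaks with MMF. A promoter reached 1000 bp to each side of a start of transcription, and its value was that of the highest peak overlapping it by at least 1 bp. Peaks at leukemic progenitor markers were found for 7 of 10 genes in all lists (Ptprc, Spi1, Kit, Hoxa9, Cebpa, Myb and Meis1), while Mpo had none in any list. Of the markers of other cells, Itgam (1 of 3 mature myeloid genes), Klf1 (1 of 2 erythroid genes found in the annotation, of 3 listed) and Ebf1 (1 of 3 B cell genes) had a promoter peak in all lists, and none of the 3 T cell genes had one in any list. Their part in the results was not tested, and in these bulk samples a shift in the mix of cells and a change within each cell cannot be told apart.

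All 77 genes of the large and small subunits had a promoter peak in all 6 lists, and so did 5 of the 9 other genes. The set thus had a peak in all lists for 82 of 86 genes (95.3%), against 11704 of all 21938 protein-coding genes (53.4%). The 4 genes that had no promoter peak in any list were Rpl10l, Rpl39l, Rpl3l and Rps27rt. Rpl10l and Rpl39l are paralogs known from testis, Rpl3l is the paralog of striated muscle, and Rps27rt is a retrogene copy of Rps27. The 5 other genes with a peak were Rpl22l1, Rpl36al, Rpl7l1, Rps27l and Rps19bp1, the last of which encodes a regulator of SIRT1 and no ribosomal protein.

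Within a list, peaks were ranked by their fold enrichment over the local background, from 0 for the lowest to 100 for the highest. The mean rank over the 6 lists had a median of 89.3 over the 82 genes, beside 84.9 over all 11704 promoters with a peak in all lists and 90.6 over the mitochondrial ribosomal protein genes. A mean rank of at least 90 was found for 40 members (48.8%) and for 34.6% of all these promoters, and a mean rank of at least 75 for 74 members (90.2%) and 69.2% of all. No member fell under a mean rank of 50. Small subunit genes had a median of 91.8 and large subunit genes one of 87.9. These are levels, and they carry no test.

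The highest mean ranks belonged to Rps3 (98.2), at the mRNA entry channel, Rps26 (98.1), at the mRNA exit channel, and Rpl31 (98.0), near the exit of the peptide tunnel. Ranks of Rps3 were 97.4, 98.2 and 98.0 in the control samples and 98.5, 98.7 and 98.6 with MMF. Ranks of Rpl31 were 97.5, 98.5 and 98.0 in the control samples and 98.1, 97.2 and 98.9 with MMF. Ranges of both genes overlapped with each other, so that their order is not larger than the spread between samples. Among the lowest mean ranks were those of Rpl36 (51.4) and Rpl8 (53.1). Ranks of Rpl36 were spread over 34.0, 44.9 and 57.9 in the control samples and 43.0, 63.0 and 65.5 with MMF, and those of Rpl8 over 63.2, 44.1 and 51.4 in the control samples and 59.5, 56.9 and 43.7 with MMF. Both genes thus had wide and overlapping ranges.

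The rank compares a summit with the reads around it. A second scale, the scaled summit reads, compares it with the whole genome. For this scale, the number of reads at the summit was recovered from the fold enrichment and the p-value of each peak and divided by the genome-wide background of the sample, which makes samples of different depth comparable. The highest member on it was Rpl13a, whose mean was 228 ± 16.7 (SD, n = 3) in the control samples. Rps4x, on the X chromosome, was lowest, at 42.5 ± 6.50. Between 22 and 162 reads stood behind each member's summit. The counting error of such numbers came to a median SD of 0.158 on the log2 scale, against a median SD between samples of one group of 0.150.

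The peaks were close to the start and simple in shape. The median summit lay 25 bp upstream of the nearest start, and 72 of 82 members (87.8%) had it within 100 bp of a start, beside 65.2% of all promoters. A single peak in the window in every list was seen for 65 members (79.3%), beside 56.0% of all. The median width was 707 bp in the control samples and 716 bp with MMF, and 669 and 664 bp over all promoters. The position of the summit differed between the 6 lists by a median of 52 bp. Rpl18 and Rpl12 were exceptions, with summits that differed by 2660 and 1194 bp. Plotting position and level shows both features.

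**Figure D1:**
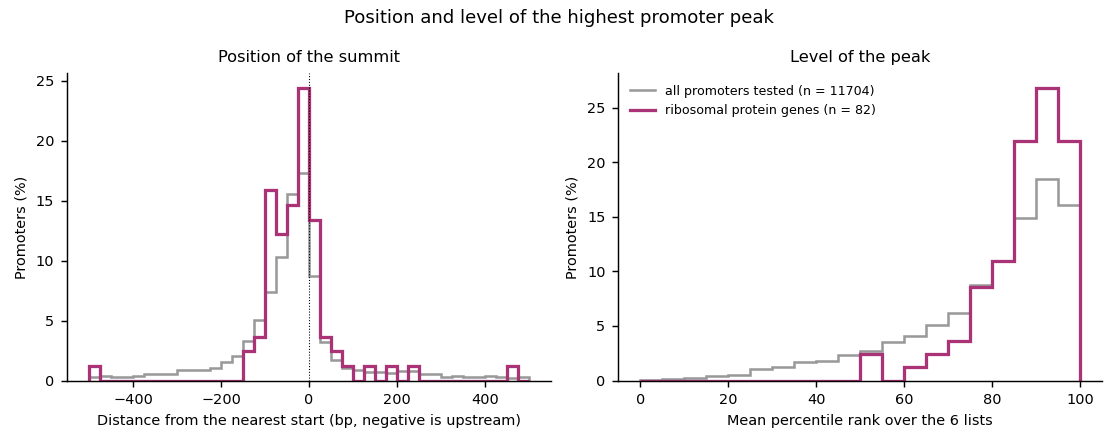
Left, the distance of the highest promoter peak's summit from the nearest transcription start in bp, and right, its mean percentile rank over the 6 lists, as the percentage of the 82 ribosomal protein genes (purple) and of all 11704 promoters tested (grey) in each bin. Summits farther than 500 bp are not drawn. The ribosomal protein genes are gathered within 100 bp of the start (72 of 82) and at ranks of 75 and above (74 of 82).

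For 15 members the highest promoter peak was also the highest promoter peak of another protein-coding gene in all lists, so that the peak cannot be assigned to one of them. These neighbors included Lrsam1 beside Rpl12, Clhc1 beside Rps27a and a readthrough gene that includes Rps10. Of the 82 members, 30 hold small nucleolar RNA (snoRNA) genes inside the gene. The snoRNAs guide the modification of ribosomal RNA and are released from introns of the host.

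Among the 62 members with a peak in all lists and an entry in the RefSeq promoter table, windows from 250 bases before to 50 bases after the start were searched for fixed letters on both strands, in the same way as 9208 promoters tested. CCGGAAG, bound by ETS factors such as GABP, stood in 23 members (37.1%) and in 20.0% of all promoters. GGGCGG (SP factors) stood in 64.5% against 67.6%, CCAAT (NF-Y) in 32.3% against 39.5%, AAGATGGC (YY1) in 8.06% against 5.09%, CACGTG (the E-box of Myc and related factors) in 8.06% against 10.7%, and TATAAA in 9.68% against 6.09%. A start on C followed by 4 pyrimidines was annotated for 12 members (19.4%) and 2.24% of all promoters. When such a run could begin anywhere within 10 bp of the start, it was found in 53.2% of the members and 31.9% of all. Members had a median GC content of 58.2% and a ratio of observed to expected CpG of 0.890, beside 61.7% and 0.791 over all. A match of letters is a description of the sequence and not of a bound factor.

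**Figure D2:**
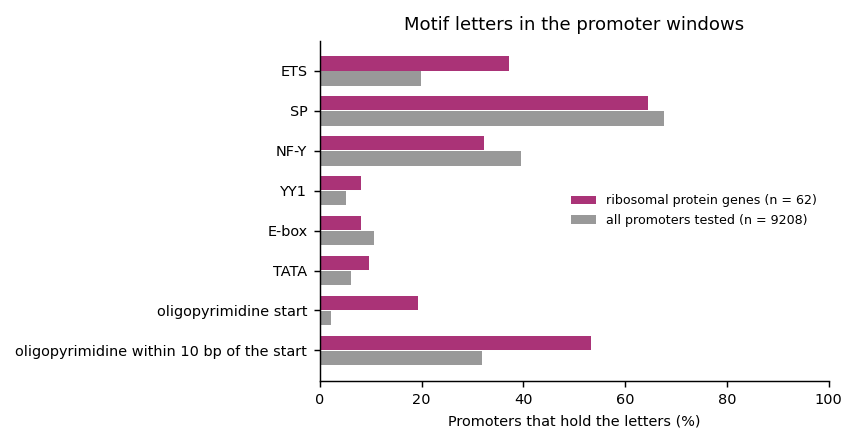
Percentage of promoter windows that hold each set of letters, for the 62 ribosomal protein genes (purple) and the 9208 promoters tested (grey) with a RefSeq entry. The shares were 37.1% against 20.0% for the ETS letters, 19.4% against 2.24% for a pyrimidine run at the start, 64.5% against 67.6% for the SP letters and 32.3% against 39.5% for the NF-Y letters.

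The comparison of MMF with control samples asked whether blocking guanine nucleotide synthesis changes accessibility at these promoters. Scaled summit reads of the 82 members were lower with MMF by a modest amount. The sample medians over members were 120.1, 121 and 126 in the control samples and 108, 114 and 110.1 with MMF, without overlap between the groups. Over all promoters they were 76.8, 79.5 and 77.4 in the control samples and 70.4, 76.5 and 72.4 with MMF, also without overlap, by a narrow margin. In log2, the median difference was -0.18 (a change of -11.5%), while it was -0.10 over all promoters tested and -0.12 over other promoters within 2.5 percentile points of each member's mean rank. The difference was negative for 73 members and positive for 9. The share below zero was 89.0%, beside 68.3% of all promoters and 73.2% of those of like rank. Like rank did not match the level of scaled reads, which was higher in members. Among the 5852 promoters of above-median scaled summit reads, 81.9% were below zero, with a median of -0.14. Of the 76 members among them, 68 were below zero, with a median of -0.18. Members stayed close together, between 0.633 and 1.10 times the control level, and 52 of them lay within 0.25 log2 units of no difference.

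The size of this shift depended on the scaling. With each sample centred on its median promoter, the median over members was -0.083 and that over all promoters -0.0085, with 58 members below zero; after quantile normalization the medians were -0.029 and -0.0065, with 50 below zero. The sign of the members' median on this scale was negative under all of these scalings.

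By rank the median member was slightly above zero. The members' median rank read 89.5 in the control samples and 89.7 with MMF, the median difference was 0.44 percentile points, and 46 members were above zero and 36 below, whereas the median over all promoters was -0.331 and that of promoters of like rank -0.472. The lists are longer with MMF, and the direction turned when this was evened out: with every list cut to the 58496 peaks of lowest p, the median over members was -2.51 and that over all promoters -5.34 percentile points, and 59 members were below zero. Taking both measures, 35 members were below zero by both, 8 above zero by both, 38 below by reads and above by rank, and 1, Rpl36a, the reverse.

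**Figure D3:**
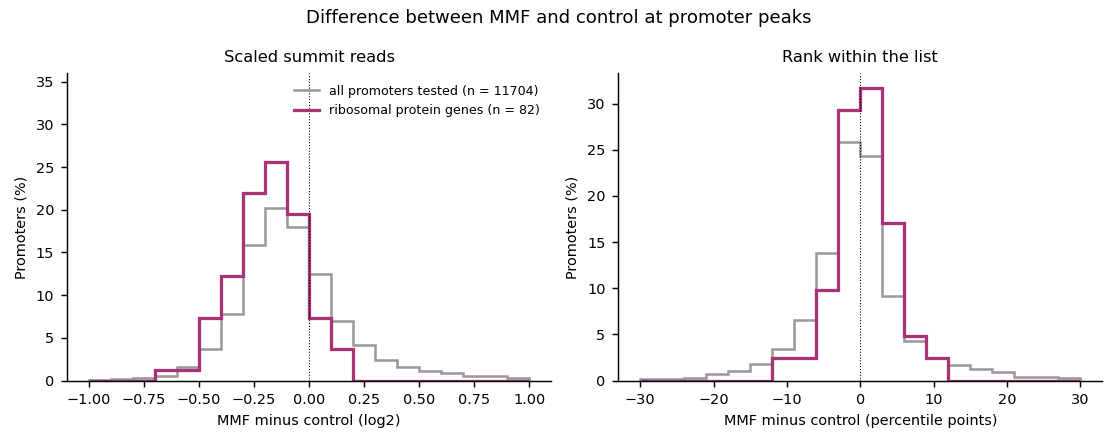
Difference between the MMF and control means in log2 scaled summit reads (left) and in percentile rank (right), as the percentage of the 82 ribosomal protein genes (purple) and of all 11704 promoters tested (grey) in each bin. Values beyond the axes are not drawn. Ribosomal protein genes are centred at -0.18 log2 and 0.44 percentile points, and lack the long right tail that all promoters have in scaled reads, with a highest value of 0.14. The highest value was 0.095 over 25 translation factors and other TOP genes and 0.37 over 78 mitochondrial ribosomal protein genes. Of the 5852 promoters of above-median scaled summit reads, tested alone, 16 were called higher, beside 189 of all 11704.

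Tested gene by gene over all 11704 promoters with limma and Benjamini-Hochberg adjustment at 0.05, 1 member was called lower by scaled summit reads and none higher, while of all promoters 61 were called lower (0.521%) and 189 higher (1.61%); centring each sample on its median promoter gave 30 and 283. By rank, no member was called in either direction, beside 3 promoters called lower (0.0256%) and 28 called higher (0.239%). With lists of equal length, 580 of 11173 promoters were called lower and 36 higher. Those called lower included 2 of the 82 members, Rpl11 and Rps4x, a smaller share than that of all promoters. At an unadjusted p under 0.05, limma gave 20 members lower (24.4%) and 0 higher by reads, beside 1267 (10.8%) and 700 (5.98%) of all promoters. By rank it gave 3 members lower (3.66%) and 4 higher (4.88%), beside 698 (5.96%) and 696 (5.95%) of all promoters, which are shares near the background. On simulated data for this comparison with 200 of the 11704 promoters shifted by 0.5 log2 units, the test called 0 of the 200, and at a shift of 1 unit it called 138. The simulation used each promoter's own estimated SD, and the 200 were drawn from all promoters. The median SD within a group was 0.177 over all promoters and 0.150 over members. These counts therefore do not give the sensitivity of the test at the members. Among the members only Rpl11 and Rps10 had a difference beyond 0.5 in either direction, and a p above the threshold does not show that a promoter did not differ.

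Groups that did not overlap give a second view without a threshold on p. In scaled summit reads all 3 MMF samples were below all 3 control samples for 34 members (41.5%), beside 17.8% of all promoters and 19.2% of those of like rank. They were above them for 0 members, beside 6.11% of all and 4.02% of those of like rank. With each sample centred on its median promoter the counts were 17 lower (20.7%, beside 8.71% of all) and 1 higher (1.22%, beside 10.2%), and after quantile normalization 10 lower (12.2%, beside 7.93%) and 2 higher (2.44%, beside 8.74%). In rank, 4 members were lower without overlap (4.88%), beside 9.7% of all promoters and 9.32% of those of like rank. Another 7 were higher (8.54%), beside 7.9% and 6.61%. The share higher was near that of all promoters, and the share lower was below it. The 4 lower members were Rpl11, Rpl17, Rpl39 and Rps4x.

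Rpl11, which with Rpl5 and the 5S rRNA forms the particle that binds Mdm2, was the member called lower. Its highest peak spanned chr4:136053008-136053807 (GRCm38), over the start of the gene, with a summit 33 bp upstream of it (median over the lists). Scaled summit reads were 143, 162 and 166 in the control samples and 89.1, 112 and 97.6 with MMF. All MMF samples lay below all control samples. The means were 157 ± 12.5 and 99.5 ± 11.5 (SD, n = 3), a log2 difference of -0.66 ± 0.14 (SE; limma adjusted p = 0.0366). Its ranks stood at 97.8, 98.6 and 98.8 in the control samples and 91.3, 93.5 and 92.0 with MMF, without overlap, a difference of -6.13 percentile points (limma adjusted p = 0.110). The call by reads was lost when any one of the 6 samples was left out, with limma adjusted p from 0.0526 to 0.125 and log2 differences from -0.75 to -0.58, and also after quantile normalization.

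Rpl5, the partner of Rpl11 in that particle, had 123, 129 and 134 in the control samples and 122, 113 and 90.2 with MMF. Its MMF samples were also below its control samples, by a narrow margin, and the log2 difference was -0.26 ± 0.14 (limma adjusted p = 0.387). In rank Rpl5 overlapped, at 97.0, 96.2 and 97.5 in the control samples and 98.9, 96.3 and 92.6 with MMF. The difference between Rpl11 and Rpl5 was not tested.

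Rps10, a small subunit protein that is ubiquitinated when ribosomes collide, came next. Its scaled summit reads were 109.8, 91.1 and 102 in the control samples and 81.4, 80.7 and 47.3 with MMF, and the third MMF sample was far below the rest. The log2 difference was -0.57 ± 0.20 (limma adjusted p = 0.198), with the largest standard error among the members named here. Without that sample it was -0.31, and the difference in rank went from -10.2 to -2.68 percentile points. Rpl17, which lines the peptide tunnel, had 91.9, 120.0 and 90.3 in the control samples and 72.6, 60.9 and 79.8 with MMF, without overlap, and a log2 difference of -0.50 ± 0.16 (limma adjusted p = 0.153). Rpl12, at the base of the ribosomal stalk, had 91.9, 114 and 102 in the control samples and 71.5, 79.3 and 71.0 with MMF. Its groups did not overlap either, and its log2 difference of -0.47 ± 0.13 gave the smallest limma adjusted p after Rpl11, at 0.116. The highest peak of Rpl12 was shared with Lrsam1. Its summit differed by 1194 bp between the lists, so that the values may not come from the same peak in every list. The rank of Rpl12 differed by 0.504 percentile points, which became -11.4 with lists of equal length. Rps19bp1, the SIRT1 regulator, had 78.2, 88.2 and 98.4 in the control samples and 51.7, 76.5 and 71.0 with MMF and a log2 difference of -0.42.

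The proteins of the acidic stalk, which recruits elongation factors to the ribosome, differed among themselves. Rplp0, which anchors the stalk, had 169, 159 and 131 in the control samples and 118, 125 and 99.0 with MMF. Rplp2 had 155, 166 and 139 in the control samples and 124, 135 and 112 with MMF. Both had no overlap between the groups, and log2 differences of -0.42 and -0.31. Rplp1, the partner of Rplp2, had 113, 127 and 75.8 in the control samples and 89.1, 102 and 111 with MMF, which overlapped, with a log2 difference of -0.036 and one control sample lower than every MMF sample. None of the 3 was called (limma adjusted p from 0.192 to 0.937).

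Rpl10, which joins the large subunit last and is needed for subunit joining, had 111, 106 and 142 in the control samples and 83.6, 89.2 and 93.1 with MMF, without overlap and with a log2 difference of -0.42. Its ranks stood at 72.7, 70.2 and 79.9 in the control samples and 72.4, 74.7 and 75.4 with MMF and overlapped, with a difference of -0.110 percentile points, or -10.2 with lists of equal length. Rpl22, known for its role in T cell development, had 155, 142 and 132 in the control samples and 112, 147 and 132 with MMF, which overlapped, at -0.14 log2. Its paralog Rpl22l1 was on the other side of zero, with 118, 106 and 95.1 in the control samples and 112, 101 and 130.1 with MMF, also overlapping, at 0.10. Neither was called, and the difference between the paralogs was not tested.

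In the small subunit, Rps19, the gene most often mutated in Diamond-Blackfan anemia, had 181, 201 and 164 in the control samples and 153, 179.9 and 149 with MMF. Rps6, the substrate of the S6 kinases, had 118, 117 and 131 in the control samples and 118, 125 and 87.2 with MMF. In both genes the groups overlapped, with log2 differences of -0.18 and -0.17. Rpsa, also known as the laminin receptor, had 139, 133 and 135 in the control samples and 119.9, 123 and 119.7 with MMF. Its samples agreed closely within each group and did not overlap, yet the log2 difference was only -0.17 ± 0.12 (limma adjusted p = 0.490). Rps27a, which encodes a fusion of ubiquitin and a ribosomal protein, had 119, 121 and 150.0 in the control samples and 129, 129 and 108 with MMF, which overlapped, at -0.094. Rps3 and Rps26, highest by rank, had log2 differences of -0.21 and -0.20. Scaled reads of Rps26 were 159, 150.4 and 181 in the control samples and 136, 135 and 157 with MMF, with overlap.

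The largest positive differences were small. Rpl36 led them, with 81.0, 91.1 and 113 in the control samples and 84.7, 115 and 115 with MMF and a log2 difference of 0.14 ± 0.17. The groups overlapped widely. Rpl23a, at the tunnel exit where the signal recognition particle docks, had 103, 114 and 126 in the control samples and 123, 123 and 129 with MMF and a log2 difference of 0.13 ± 0.13, with overlap. Its ranks, in contrast, stood at 82.7, 80.7 and 83.9 in the control samples and 93.1, 92.8 and 93.7 with MMF, without overlap, and the difference of 10.7 percentile points was not called (limma adjusted p = 0.182). Rps15a and Rpl36a had log2 differences of 0.071 and 0.049, and none of these 4 genes or Rpl22l1 was called. At Rpl31 and Rpl8 the values were -0.017 and -0.014. The plot of scaled reads by sample shows the members in this way.

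**Figure D4:**
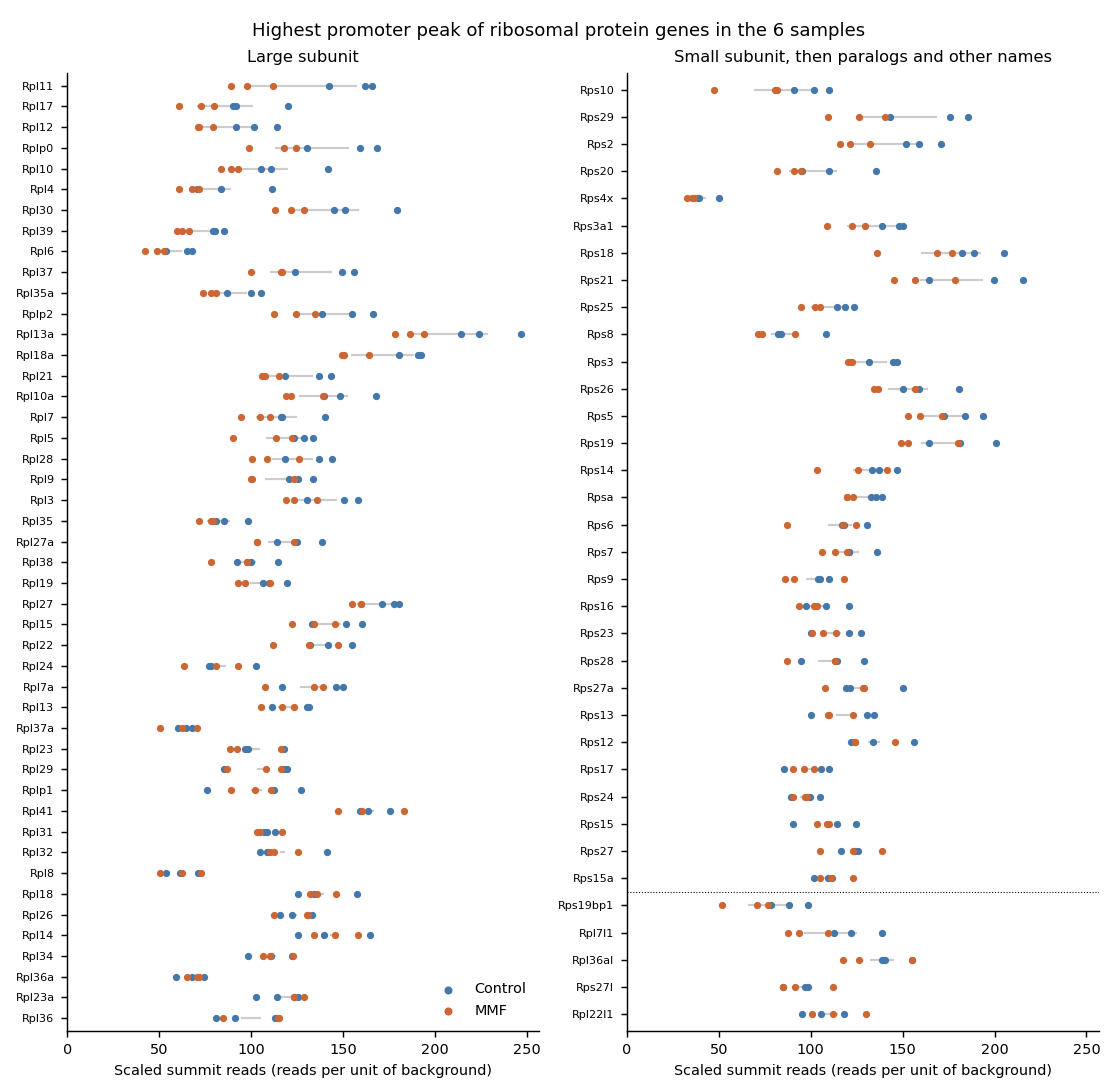
Scaled summit reads (summit reads per unit of genome-wide background) of the highest promoter peak of 81 of the 82 members in each control (blue) and MMF (orange) sample, with a grey line between the group means. Genes are ordered by their difference, within large subunit genes (left) and small subunit genes followed by paralogs and other names under the dotted line (right). Rpl11 and Rps10 stand at the top, and the log2 difference was below zero in 73 of the 82 members, with all orange points left of all blue ones in 34.

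By subunit, the median log2 difference was -0.18 over the 46 large subunit genes, of which 40 were below zero, and -0.18 over the 31 small subunit genes, of which 30 were. Over the 5 other genes it was -0.13, with 3 below zero. Non-overlapping groups, lower with MMF, were found for 19 large subunit genes (41.3%), 13 small subunit genes (41.9%) and 2 of the others (40%). The share over all promoters was 17.8%. Over all members the count of 34 became 17 with centring and 10 after quantile normalization. By rank, the median difference was 0.0296 percentile points in the large and 1.02 in the small subunit.

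The 30 members that hold snoRNA genes had a median log2 difference of -0.28 with 29 below zero, and the other 52 one of -0.14 with 44 below zero. The groups of genes had medians of control values of 129.7 ± 5.25 and 119.7 ± 1.79 (SD of the medians, n = 3). Groups did not overlap, lower with MMF, in 18 of the 30 (60%) and 16 of the 52 (30.8%), beside 17.8% of all promoters. These counts were made without centring or quantile normalization, under which fewer members were lower without overlap. By rank the medians were -0.279 and 0.636 percentile points. Members with the ETS letters had a median log2 difference of -0.20 (23 genes) and those without -0.13 (39 genes). For a pyrimidine start the values were -0.19 (12 genes) and -0.16 (50 genes). With the run anywhere within 10 bp of the start, the order turned, at -0.16 (33 genes) and -0.18 (29 genes). Members with and without the letters also differed in the reverse order for NF-Y (-0.15 and -0.17) and the E-box (-0.079 and -0.17). For YY1 the medians were -0.29 and -0.17, for TATA -0.24 and -0.17, and for SP -0.17 and -0.16. Only 5 members held the YY1 letters, 5 the E-box and 6 the TATA letters. These splits of the set were made on the same samples and carry no test.

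**Figure D5:**
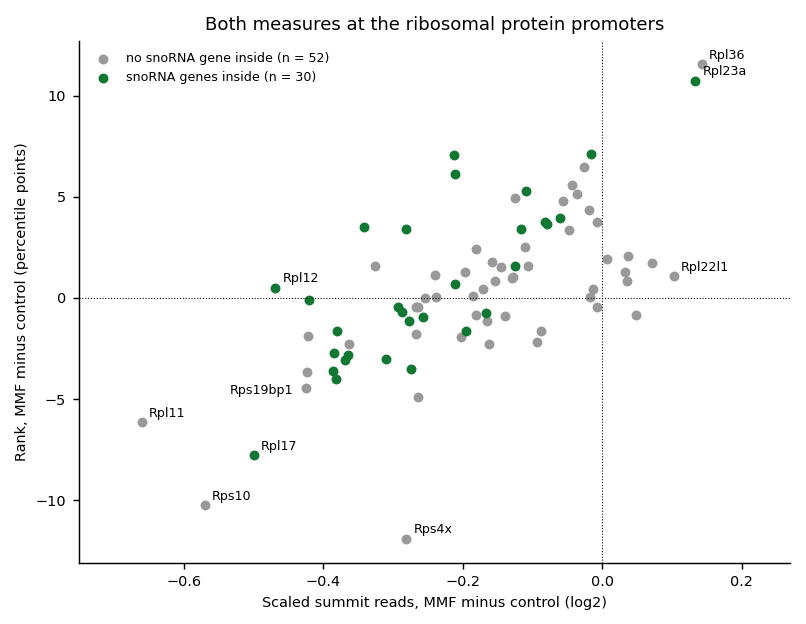
Difference between MMF and control in log2 scaled summit reads (x axis) and in percentile rank (y axis) for the 82 members, with those that hold snoRNA genes in green (n = 30) and the others in grey (n = 52). Named points are the members with the largest differences. Points lie left of zero for 73 members and above zero for 46, with Rpl11 farthest left and Rps4x lowest.

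Related gene groups gave the following values. Fau, a fusion gene that encodes a ribosomal protein under a name outside the rule, had a peak in all lists and a log2 difference of -0.025. The 25 translation factors and other genes of TOP mRNAs all had a peak in all lists, with a median mean rank of 88.6, a median log2 difference of -0.18 and 22 below zero, and 0 of them were called in either direction by limma on reads or rank (6 lower and 0 higher at an unadjusted p under 0.05 by reads, beside the 10.8% and 5.98% of all promoters). Eif3a, the largest subunit of initiation factor eIF3, had 148, 129 and 134 in the control samples and 96.8, 83.6 and 112 with MMF, without overlap, a log2 difference of -0.50 (limma adjusted p = 0.123). Rack1, a scaffold on the small subunit, had 145, 149 and 176 against 107, 122 and 118, at -0.44 (limma adjusted p = 0.137). The 78 mitochondrial ribosomal protein genes, which serve the separate ribosome of mitochondria, also had a peak in all lists, a median log2 difference of -0.15, 68 below zero and 1 called lower, Mrps5 (54.9, 65.1 and 56.4 against 40.7, 38.2 and 37.0, log2 difference -0.60, limma adjusted p = 0.0408). Scaled reads were lower with MMF without overlap in 9 of the 25 TOP genes (36%) and 18 of the 78 mitochondrial genes (23.1%). The shares were 41.5% of the cytosolic set and 17.8% of all promoters. As in the cytosolic set, 0 genes of either group were higher without overlap, beside 6.11% of all. The median over these 78 genes was between that of the cytosolic set and that of all promoters, and no test of the difference between the groups was made.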

How the data were processed

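ATAC-seq peak lists of 3 control and 3 MMF-treated samples were used. According to the study's methods and the submitters' processing notes, reads were mapped to mm10 with Bowtie2 and peaks were called on each sample with MACS2; FastQC and Trim Galore are also named, and versions are not given in the sources used here. In the deposited lists, fold enrichment is a ratio of summit reads to local background, and p and q are −log10 values. The score column deposited by the authors was not used. The lists hold called peaks and no read counts per region, so that a promoter without a peak has no value.

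Peaks on chromosomes 1 to 19, X and Y were assigned to windows of 1000 bp on either side of the starts of GENCODE M21 basic transcripts, and checked against bedtools 2.31.1. Summit reads were solved from the fold enrichment and the Poisson p, and came out whole for 100% of the peaks of each list within a relative tolerance of 0.0001. They were divided by the lowest background of the sample, which scales to depth and was 0.620 to 0.729 reads in control and 0.676 to 0.909 reads in MMF samples. The median summit of a list held 14 to 19 reads, and counting error alone limits weak peaks. The 11704 promoters that had a peak in every list entered limma 3.58.1 (R 4.3.3; functions lmFit and eBayes, no block), once as log2 scaled summit reads without a pseudocount and once as ranks by fold enrichment turned into normal scores, with Benjamini-Hochberg adjustment over all of them and a threshold of 0.05. The step was tested on simulated data. Sequences came from the RefSeq promoter table on GRCm38.p6, which matched 66 of the 86 members and 62 of the 82 with a peak in all lists. Python 3.11.15, pandas 2.3.3, scipy 1.17.1 and matplotlib 3.10.9 were used.

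The members, gene lists and motifs were chosen with earlier results of these data known. Named genes were the members called, the 5 with the largest positive and the 5 with the largest negative log2 difference, the 3 of highest and the 3 of lowest mean rank, those without a peak in all lists, and 11 chosen by role. Values of some genes are not reported here. Rps27, Rpl26 and Rpl18 entered with the sequences as the members with the smallest difference. Rpl13a, Rps4x, Rpl39 and the genes named from other lists were chosen after their values were seen. Alternatives covered list length, peak threshold, window, start, summit position, ranking measure, scaling, pseudocount, filter, block and leaving out each sample.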

Additional observations from a re-analysis of the deposited data

How the results depend on the processing

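Of the 82 members with a promoter peak in all lists, at least 78 kept one under every alternative. The median log2 difference over members stayed below zero, from -0.20 to -0.16 with 1 sample left out, -0.083 with samples centred on the median promoter and -0.029 after quantile normalization. The median rank difference was 0.042 to 0.75 percentile points with 1 sample left out and -2.51 at equal list length. Members called lower by scaled summit reads numbered 0 whenever 1 sample was left out and 0 after quantile normalization. By rank, 2 of the 82 members were called lower at equal list length, Rpl11 (limma adjusted p = 0.0169) and Rps4x (0.0416). This share was smaller than that of all promoters, of which 580 of 11173 were called lower. Counts over all promoters called by scaled reads ran from 16 to 286 higher and 22 to 75 lower, and by rank from 0 to 134 higher and 0 to 580 lower. The cause of these differences was not tested.

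Same-numbered samples did not deviate together (r between -0.002 and 0.029 over promoters), so the numbers were not taken to pair the samples. With a replicate block, 0 members were called lower by scaled reads, and 165 promoters were called higher and 36 lower.

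Chosen after seeing the data, restricting the set to the 77 subunit genes gave medians of -0.18 log2 and 0.44 percentile points, and leaving out members that share their highest peak gave -0.17 and 0.44. The 3 samples per group and 22 to 162 reads per summit limit single genes.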
